A study of Homo sapiens with 32 samples.

Results

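The 7SL genes are the human genes for the RNA of the signal recognition particle and their closest copies. 5 of them, RN7SL1, RN7SL2, RN7SL3, RN7SL4P and RN7SL5P, were taken from the 58721 genes of the expression tables by matching Ensembl identifiers to symbols. They were chosen by their Subunit-Seq values, uneven among the input libraries and low in the immunoprecipitates. Those Subunit-Seq values are therefore given as a description, with no test. RNA-Seq values did not choose the genes, and they were tested.

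7SL RNA is made by RNA polymerase III (Pol III), carries no poly(A) tail and is folded into an Alu domain and an S domain. In the signal recognition particle (SRP) it holds the SRP proteins together, and the particle binds ribosomes whose nascent chain carries a signal peptide and brings them to the SRP receptor and the Sec61 translocon of the endoplasmic reticulum (ER). The S domain binds SRP54, SRP19, SRP68 and SRP72, and the Alu domain binds the SRP9 and SRP14 pair. The human genome holds a few active 7SL genes and many truncated or mutated copies, and Alu repeats descend from the same RNA.

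The study concerns eIF3d, the cap-binding subunit of translation initiation factor eIF3, under persistent ER stress. It used HEK293T, a human embryonic kidney cell line grown in DMEM with fetal bovine serum, and treated it for 16 h with thapsigargin (Tg, 600 nM), which empties the ER calcium store, or with an equal volume of DMSO. RNA-Seq of poly(A)-purified RNA covered cells with wild-type eIF3d (WT) and cells with eIF3d (S528D, S529D), a form with 2 serines replaced by the phosphate-mimicking aspartate and here called DD, each with DMSO or Tg. Subunit-Seq covered cells labelled HA-eIF3d-TEV, with DMSO or Tg. In that assay eIF3d carries an HA tag and a site for TEV protease, so that the complex is captured with anti-HA and the cap-binding part is released with the RNA it holds. Its 4 groups are the input RNA and the immunoprecipitate (IP) of each treatment. The remaining 16 of the 32 samples are m6A libraries, described at the end. Every group held 2 libraries, numbered replicate 1 and replicate 2, and no label says that they came from separate cultures, so p-values measure only the spread between these libraries. Whether the lines were single clones and how the eIF3d alleles were expressed is not given in the sources used here.

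Depth, counted as reads recovered from the tables, was 4508484 to 10163216 per RNA-Seq library and 5102853 to 16860641 per Subunit-Seq library. Of the HEK293T markers, LIN28B, NEFL, NEFM, KRT8, KRT18 and VIM were above 0 in every RNA-Seq library and input, while PAX2 reached at most 0.194 RPKM in RNA-Seq. RPKM scales reads to the length of the gene and the depth of the library. The blood cell markers PTPRC and CD3E were at 0, and of the fibroblast genes COL1A1 reached 19.0 RPKM. The 2 mitochondrial ribosomal RNAs took 25.4% to 57.3% of RNA-Seq reads, 4.64% to 20.4% of input reads and 0.286% to 0.705% of IP reads. The input library labelled DMSO replicate 2 stood apart, with 6395 genes at 1 RPKM or more against 8503 to 11452 in the other inputs. Among the RNA-Seq libraries the one labelled WT DMSO replicate 2 stood apart in the 7SL genes themselves. Values without these libraries are given beside the spreads, the RNA-Seq differences and the tests of IP against input with DMSO.

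RN7SL2 (ENSG00000274012.1) and RN7SL3 (ENSG00000278771.1) lie close together on chromosome 14, at 49862551 to 49862849 and 49853616 to 49853914 in the RefSeq annotation of GRCh38.p14. RN7SL1 (ENSG00000276168.1) lies on the same chromosome at 49586580 to 49586878. These are single noncoding RNA genes. RN7SL4P (ENSG00000263740.2; chromosome 3, 15738515 to 15738786) and RN7SL5P (ENSG00000265735.2; chromosome 9, 9441998 to 9442310) are annotated as pseudogenes. The gene lengths behind the RPKM values came out as 300, 299, 295 and 321 bases for RN7SL2, RN7SL3, RN7SL4P and RN7SL5P. The copies are nearly identical, so the division of reads among them depends on how the authors counted reads that fit several places, which is not given in the sources used here, and the value of a single copy is uncertain. RN7SL1 was listed at 0 in all 16 libraries. A true count of 0 would allow up to 0.178 RPM (reads scaled to library depth) in the deepest of these libraries and 0.665 in the shallowest, counting error only. RN7SK, RMRP and RPPH1, 3 other abundant Pol III RNAs, were also listed at 0 in all 16 libraries, so an exact 0 in these tables need not mean that the RNA was missing.

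Among the RNA-Seq libraries, RN7SL2 was the highest 7SL gene and 1 library held most of it. In WT cells with DMSO it stood at 1894 RPKM in replicate 1 and 52122 in replicate 2. In WT cells with Tg it stood at 2912 and 1415 RPKM. DD cells had 3058 and 546.1 RPKM with DMSO, and 2118 and 423.3 with Tg. Replicate 1 was thus even over the 4 groups, and replicate 2 ran from the lowest to the highest value. By rank among all genes of its library, RN7SL2 was at rank 3 in WT DMSO replicate 2 and between 9 and 119 in the other 7.

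RN7SL5P was the next copy in level. In the same order it stood in WT cells at 1178 and 6656 RPKM with DMSO and 2155 and 271.4 with Tg, and in DD cells at 2340 and 98.5 with DMSO and 1510 and 102.6 with Tg. RN7SL3, one of the annotated functional genes, was lower throughout, in WT cells at 153.3 and 1448 RPKM with DMSO and 306.7 and 86.6 with Tg, and in DD cells at 301.1 and 28.5 with DMSO and 219.2 and 22.3 with Tg. Both followed RN7SL2, with replicate 2 above replicate 1 in WT DMSO and below it in the other 3 groups. RN7SL4P did not: WT cells had 676.8 and 317.3 RPKM with DMSO and 883.5 and 14.8 with Tg, and DD cells 1055 and 4.52 with DMSO and 725.1 and 4.12 with Tg, so that replicate 2 was below replicate 1 in all 4 groups.

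**Figure D1:**
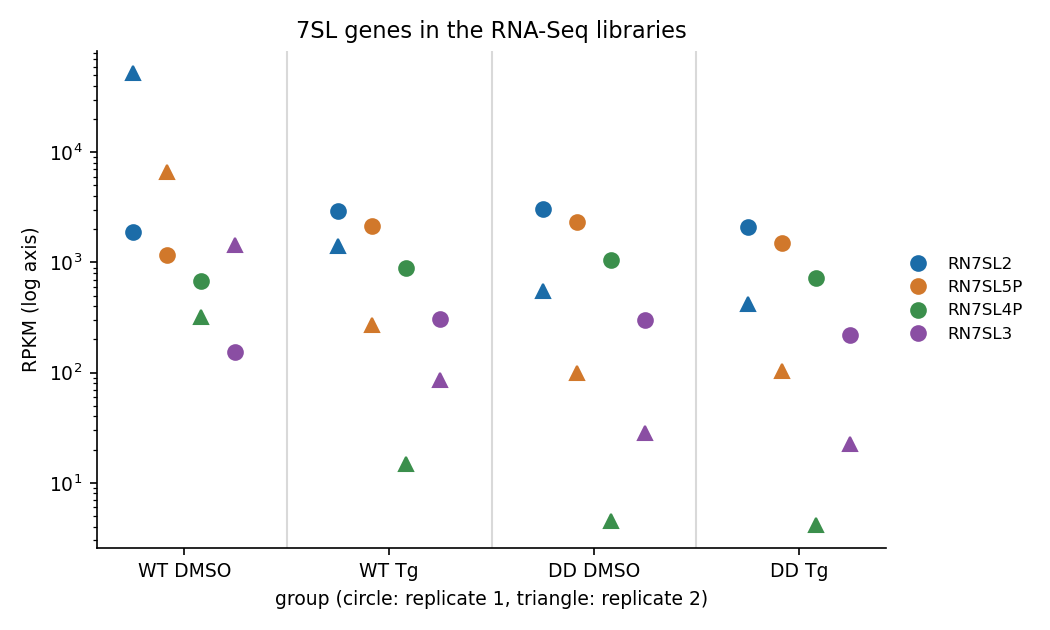
RPKM (log axis) of the 4 detected 7SL genes in the 8 RNA-Seq libraries, by eIF3d form and treatment, with circles for replicate 1 and triangles for replicate 2. Circles are nearly level over the groups, and the triangle of WT DMSO lies far above the other triangles for every gene.

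Summed over the family, the 8 RNA-Seq libraries ranged from 552.4 RPKM in DD Tg replicate 2 to 60543 in WT DMSO replicate 2, a 109.6-fold spread. Without WT DMSO replicate 2 the spread was 12.2-fold, a setting added after the data were seen. Within replicate 1 alone it was 1.73-fold, and within replicate 2 without that library 3.24-fold. As a share of reads, the family took 1.83% (95% Wilson interval 1.82% to 1.84%) of WT DMSO replicate 2 and 0.0168% (0.0158% to 0.0178%) of DD Tg replicate 2. The other 6 libraries lay between 0.0205% and 0.207%. Wilson intervals cover counting error only, and the spread between replicates was far wider. The ranges of the 4 groups overlapped in every pair. Mitochondrial ribosomal RNA took 34.1% of reads in WT DMSO replicate 2, the highest 7SL library, and 57.3% in DD Tg replicate 2, the lowest. In whole-culture RNA, fewer cells of a type and less RNA per cell cannot be told apart.

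The balance among copies separated the 2 replicates, whatever the treatment or the form of eIF3d. In the 4 replicate 1 libraries RN7SL4P stood at 30.3% to 35.7% of RN7SL2, and in the 4 replicate 2 libraries at 0.609% to 1.04%. RN7SL5P stood at 62.2% to 76.5% of RN7SL2 in replicate 1 and 12.8% to 24.2% in replicate 2. RN7SL3 stood at 8.10% to 10.5% and 2.78% to 6.12%. All 3 ratios share RN7SL2 as their base and the copies share reads, so they are not separate observations. How many other genes split by replicate number was not counted. RN7SL2 made up 45.3% to 48.5% of the family sum in replicate 1 and 76.6% to 86.1% in replicate 2. The labels do not say what the replicate number marks, and how the authors assigned reads to the copies in each replicate was not tested.

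**Figure D2:**
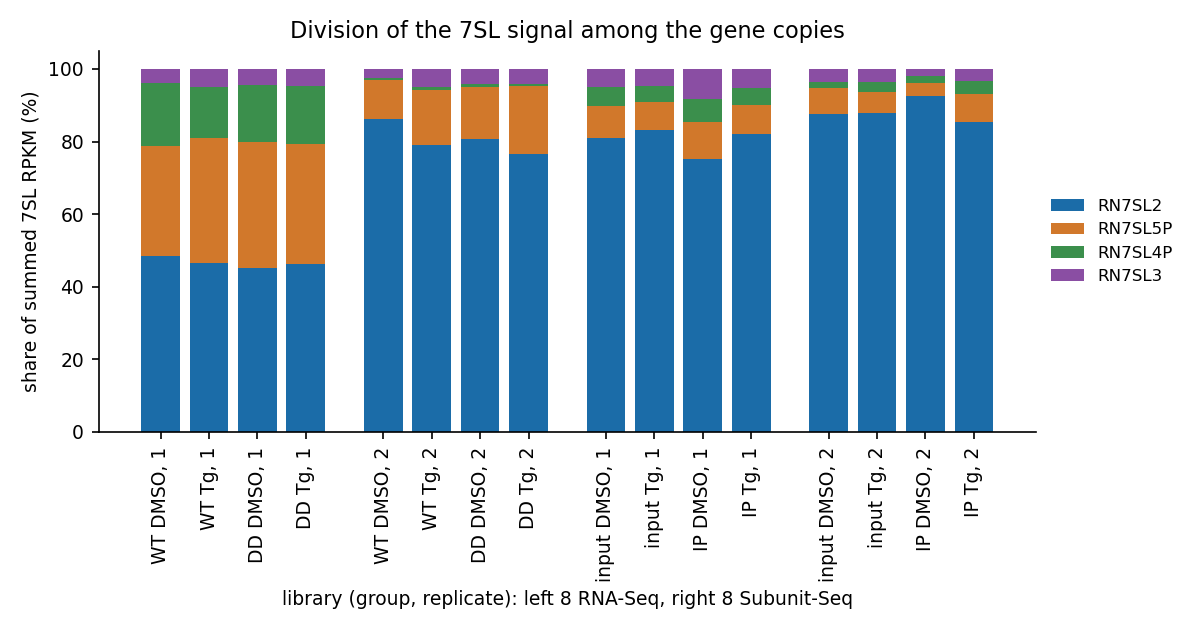
Stacked bars of the share of the summed 7SL RPKM held by RN7SL2, RN7SL5P, RN7SL4P and RN7SL3 in each of the 16 libraries. RNA-Seq libraries are on the left and Subunit-Seq libraries on the right. In RNA-Seq, RN7SL2 makes up 45.3% to 48.5% of the sum in replicate 1 and 76.6% to 86.1% in replicate 2. RN7SL4P makes up 14.1% to 17.3% in replicate 1 and 0.524% to 0.826% in replicate 2.

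The RNA-Seq comparisons ask whether Tg or the DD form of eIF3d changed 7SL RNA levels. In all 4 comparisons of groups and in the interaction, 0 of the 4 detected genes passed limma's test at an adjusted p of 0.05, and over all 9637 genes tested 0.0% passed in each. RN7SL1, at 0, did not pass the filter of a mean of 1 RPKM. At an unadjusted p under 0.05 the counts over all genes were 24 for Tg in WT, 25 for Tg in DD, 68 for DD against WT in DMSO, 82 for DD against WT in Tg and 21 for the interaction. limma with voom weights on the recovered reads also called 0 genes. The WT DMSO libraries enter the comparisons of Tg in WT and of DD in DMSO, so these share controls.

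Tg in WT cells moved the 2 replicates in opposite directions. In replicate 1 the 4 genes were 1.30-fold to 2.00-fold higher with Tg, and in replicate 2 they were 16.7-fold to 36.8-fold lower. The groups overlapped for each of the 4 genes, against 10.3% of all genes tested whose groups did not overlap. For RN7SL2 the fitted difference was -2.29 ± 1.5 (SE) in log2(RPKM + 1), with a 95% interval from -5.65 to 1.07 (limma adjusted p = 1.0, higher in 1 of 2 replicates). Fitted differences of RN7SL3, RN7SL4P and RN7SL5P were -1.53, -1.98 and -1.87. Without WT DMSO replicate 2 they were 0.10 for RN7SL2, 0.089 for RN7SL3, -2.52 for RN7SL4P and -0.62 for RN7SL5P, with 1 DMSO library left, assumed to vary like the other groups.

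In DD cells Tg went with slightly lower values. In replicate 1 all 4 genes were lower with Tg, RN7SL2 falling from 3058 to 2118 RPKM. In replicate 2, RN7SL2, RN7SL3 and RN7SL4P were lower and RN7SL5P was 1.04-fold higher. Groups overlapped for all 4 genes, with a background of 12.7%. The RN7SL2 difference was -0.45 ± 1.5 (interval -3.81 to 2.91, limma adjusted p = 1.0), so a change of several fold either way lies inside its interval. The difference between the Tg responses of DD and WT was 1.84 ± 2.12 for RN7SL2 (interval -2.91 to 6.59, limma adjusted p = 1.00), and -0.55 without WT DMSO replicate 2.

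Between DD and WT cells the direction again depended on the replicate with DMSO and did not with Tg. With DMSO the 4 genes were 1.56-fold to 1.99-fold higher in DD in replicate 1 and 50.8-fold to 95.4-fold lower in replicate 2. The RN7SL2 difference was -2.94 ± 1.5 (interval -6.30 to 0.42, limma adjusted p = 1.0), and -0.55 without WT DMSO replicate 2. RN7SL3, RN7SL4P and RN7SL5P differed by -2.33, -2.60 and -2.54, and by -0.71, -3.15 and -1.29 without that library. With Tg all 4 genes were lower in DD in both replicates, by 1.22-fold to 1.43-fold in replicate 1 and 2.65-fold to 3.88-fold in replicate 2. The RN7SL2 difference was -1.10 ± 1.5 (interval -4.46 to 2.26, limma adjusted p = 1.0). The groups overlapped for all 4 genes in both comparisons, against backgrounds of 15.8% with DMSO and 16.3% with Tg. Since the copies share reads, their common direction counts as 1 observation per replicate.

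In the Subunit-Seq inputs, which are the RNA before capture, 7SL was uneven, as in RNA-Seq. RN7SL2 stood at 12054 and 204.2 RPKM in the DMSO inputs and at 106974 and 6682 in the Tg inputs. RN7SL5P had 1316 and 16.4 RPKM with DMSO and 9800 and 444.7 with Tg. RN7SL4P had 788.0 and 3.71 RPKM with DMSO and 5526 and 206.6 with Tg, and RN7SL3 had 735.9 and 8.70 with DMSO and 6188 and 280.3 with Tg. In all 4 genes Tg replicate 1 was the highest input and DMSO replicate 2 the lowest. RN7SL2 was second among all genes in the first and at rank 230 in the second. Summed over the family the inputs differed 551.3-fold, and 16.9-fold without DMSO replicate 2, also a setting added after the data were seen. The family took 3.87% of reads (Wilson interval 3.86% to 3.89%) in Tg replicate 1 and 0.00702% (0.00661% to 0.00747%) in DMSO replicate 2.

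In the IPs the summed family and RN7SL2 varied far less than in the inputs, and the minor copies varied more than RN7SL2. RN7SL2 stood at 474.6 and 639.8 RPKM with DMSO and at 414.8 and 528.6 with Tg. RN7SL5P had 65.4 and 24.6 RPKM with DMSO and 41.0 and 48.1 with Tg. RN7SL4P lay at 40.1 and 14.9 RPKM with DMSO and 22.9 and 23.4 with Tg. RN7SL3 lay at 52.0 and 12.6 RPKM with DMSO and 27.0 and 19.9 with Tg. The treatments overlapped for each gene. RN7SL2 was lower with Tg in both replicates, and the other 3 genes were lower in replicate 1 and higher in replicate 2. The highest IP exceeded the lowest 1.54-fold for RN7SL2, 4.12-fold for RN7SL3, 2.70-fold for RN7SL4P and 2.66-fold for RN7SL5P. Summed, the 4 IPs lay between 505.7 and 691.8 RPKM, a 1.37-fold spread against 551.3-fold in the inputs, and took 0.0152% to 0.0208% of reads. RN7SL2 ranked between 71 and 96 among all genes in the IPs.

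**Figure D3:**
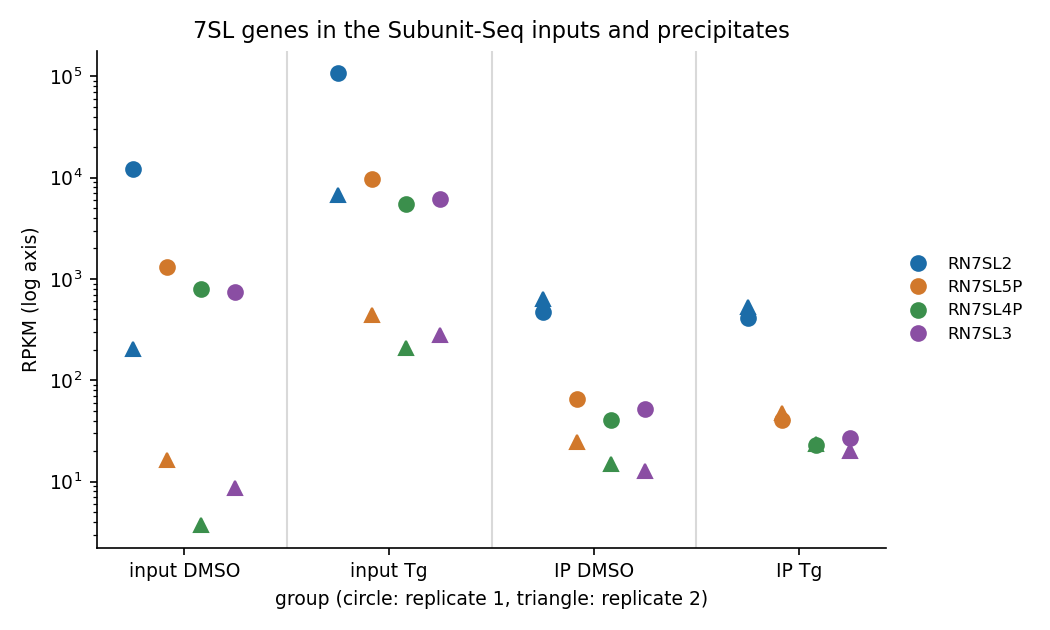
RPKM (log axis) of the 4 detected 7SL genes in the 8 Subunit-Seq libraries, grouped as input and IP with DMSO and Tg, with circles for replicate 1 and triangles for replicate 2. RN7SL2 runs from 204.2 to 106974 RPKM in the inputs and from 414.8 to 639.8 in the IPs.

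The ratio of IP to input followed the input, since the summed IPs differed so little. With DMSO the family sum was 23.6-fold lower in the IP in replicate 1 and 2.97-fold higher in replicate 2. With Tg it was 254.1-fold lower in replicate 1 and 12.3-fold lower in replicate 2. For single genes the IP was 14.2-fold to 25.4-fold lower in DMSO replicate 1, 1.45-fold to 4.0-fold higher in DMSO replicate 2, 229.4-fold to 257.9-fold lower in Tg replicate 1 and 8.84-fold to 14.1-fold lower in Tg replicate 2. IP and input overlapped for all 4 genes with DMSO, where 62.7% of all 9813 genes did not overlap, and for none of the 4 with Tg, where 71.0% did not. These values chose the genes, so nothing is read from the counts.

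Among all genes, 7SL stood at the low end of IP over input in 3 of 4 pairs of libraries. The genes were chosen by these values, so the ranks are description only. In log2(RPKM + 1), RN7SL2 was at -4.66 in DMSO replicate 1, with 1 gene lower, and at -8.01 in Tg replicate 1, with 0 genes lower. In Tg replicate 2 it was at -3.66, with 14 genes lower, RN7SL3 among them. In DMSO replicate 2 its 1.64 was 0.07 above the median of all genes, which was itself 1.57 in that pair and 0.38, 0.85 and 0.84 in the others. Under median-ratio scaling RN7SL2 in that pair turned to -0.80, so the direction of 7SL in DMSO replicate 2 depends on the scaling, while all 4 genes stayed lower in the IP in the other 3 pairs.

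**Figure D4:**
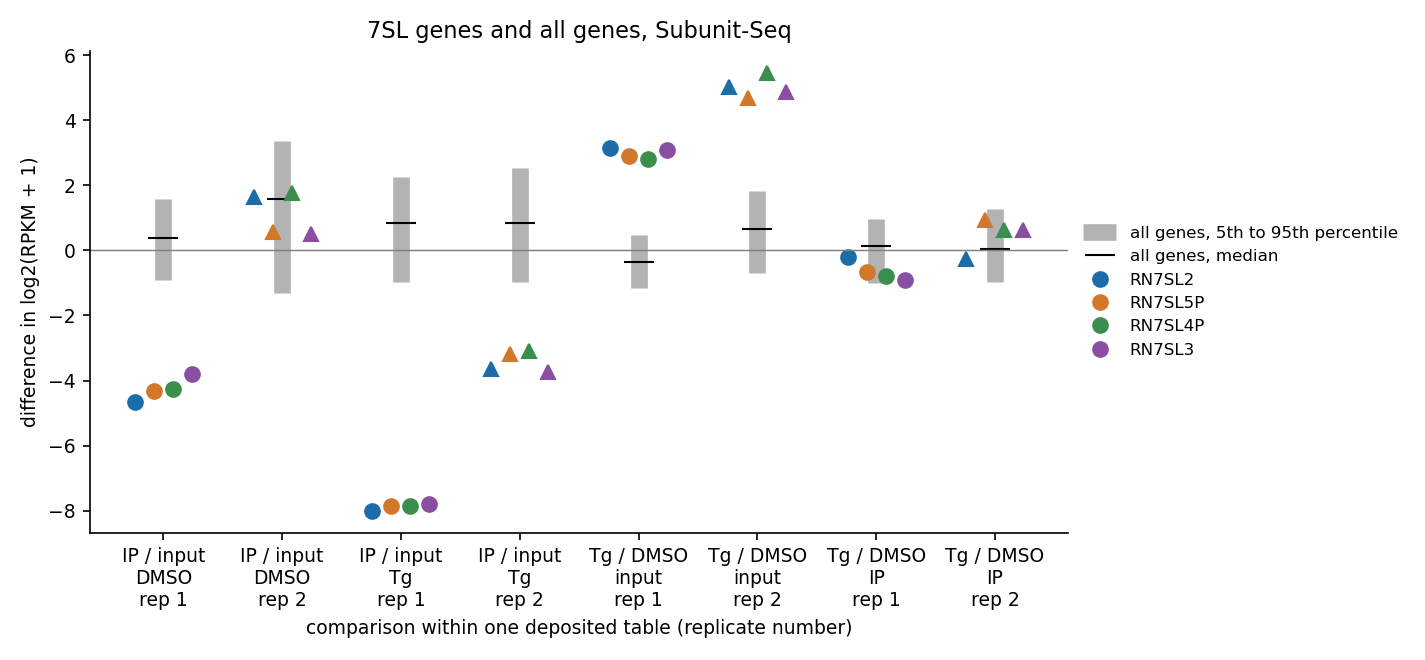
Differences in log2(RPKM + 1) within each replicate for the 4 detected 7SL genes (coloured points), beside the median and the 5th to 95th percentile of all 9813 genes (black line and grey bar). For IP against input the 7SL genes lie below the grey bar in DMSO replicate 1 and both Tg replicates, and inside it in DMSO replicate 2. For Tg against DMSO they lie above it in both pairs of inputs. The genes were chosen by Subunit-Seq values, so their place is description only.

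Comparing Tg with DMSO input by input, the family sum was 8.63-fold higher with Tg in replicate 1 and 32.7-fold higher in replicate 2. The 4 genes ranged from 7.01-fold to 8.87-fold in replicate 1 and from 27.1-fold to 55.6-fold in replicate 2. RN7SL2 differed by 3.15 in replicate 1, with 4 genes higher, and by 5.03 in replicate 2, with 1 gene higher, the copy RN7SL4P. These ranks too are description only, since uneven inputs chose the genes. All 4 genes were higher with Tg in both pairs, but DMSO replicate 1 exceeded Tg replicate 2 in each, so the groups overlapped for all 4 genes (14.6% of all genes did not overlap). In the IPs the family sum with Tg was 0.800 times that with DMSO in replicate 1 and 0.896 times in replicate 2. The WT RNA-Seq libraries, with the same treatment and dose, gave no such common direction, being higher with Tg in replicate 1 and lower in replicate 2.

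The balance among copies leaned the same way by replicate in Subunit-Seq, but less clearly. RN7SL4P stood at 5.17% to 8.46% of RN7SL2 in the 4 replicate 1 libraries, inputs and IPs together, and at 1.82% to 4.42% in the 4 replicate 2 libraries. RN7SL5P stood at 9.16% to 13.8% in replicate 1 and 3.84% to 9.09% in replicate 2, and RN7SL3 at 5.78% to 10.9% and 1.97% to 4.26%. For each copy replicate 1 was the higher, as in RNA-Seq, but for RN7SL4P and RN7SL5P the ranges lay closer together. The lowest RN7SL5P share in replicate 1 (9.16%, Tg input) and the highest in replicate 2 (9.09%, Tg IP) nearly met. In Tg IP replicate 2, RN7SL5P held 244 reads and RN7SL4P 109, so the gap for RN7SL5P lies within counting error. How many other genes split by replicate number was not counted. RN7SL2 made up 80.9% to 87.8% of the family in the inputs and 75.1% to 92.5% in the IPs.

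The messenger RNAs of the SRP proteins, the partners of 7SL RNA, were measured in the same libraries. SRP9 mRNA, for the Alu-domain protein, stood at 183.2 and 102.7 RPKM in the DMSO inputs, 109.1 and 122.0 in the Tg inputs, 366.3 and 355.8 in the DMSO IPs, and 272.0 and 395.6 in the Tg IPs. All 4 IPs were above all 4 inputs. With Tg the difference was 1.5 ± 0.56 in log2(RPKM + 1) (limma adjusted p = 0.0471), and with DMSO 1.39 ± 0.56 (limma adjusted p = 0.0527). SRP54, the GTPase that binds the signal peptide, had 5.39 and 1.32 RPKM in the DMSO inputs and 10.8 and 11.8 in the DMSO IPs. Its difference with DMSO was 1.68 ± 0.65 (limma adjusted p = 0.045). SRP14, the partner of SRP9, was lower in the IP in every pair. With DMSO it had 205.99 and 152.73 RPKM in the inputs and 132.25 and 121.46 in the IPs. With Tg it had 147.59 and 130.0 RPKM in the inputs and 96.35 and 104.03 in the IPs. SRP14, SRP68 and SRP72 were not called. Of the 5 SRP proteins tested, 1 rose in the IP with DMSO and 1 with Tg, and 0 fell, where 23.2% and 16.2% of all genes passed, 21.4% and 14.6% rising and 1.75% and 1.62% falling. Under median-ratio scaling, which lowers the median difference of all genes by 1.09 with DMSO and by 1.02 with Tg, 12 genes rose and 17 fell with DMSO, and 27 rose and 58 fell with Tg. The SRP list's median difference was 1.39 with DMSO and 0.75 with Tg, beside 0.96 and 0.87 for all genes. The SRP54 call with DMSO held in 1 of 13 alternatives and the SRP9 call with Tg in 2, and SRP9 with DMSO turned to -0.11 under median-ratio scaling.

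Of the 12 genes of the SRP receptor and the translocon, 4 rose and 1 fell in the IP with DMSO, and 2 rose and 1 fell with Tg, beside 21.4% of all genes rising and 1.75% falling with DMSO and 14.6% and 1.62% with Tg. The list's median difference was 1.25 with DMSO and 0.61 with Tg, against 0.96 and 0.87 for all genes. SEC62, a translocon partner, had 3.46 and 1.06 RPKM in the DMSO inputs and 18.3 and 19.5 in the DMSO IPs, a difference of 2.71 ± 0.64 (limma adjusted p = 0.00136), and with Tg its difference was 2.63 ± 0.64 (limma adjusted p = 0.00161). SEC61A1, the channel subunit, differed by 2.61 ± 0.66 with DMSO (limma adjusted p = 0.00284) and SEC63, an ER co-chaperone, by 2.18 ± 0.64 (limma adjusted p = 0.00999). SSR4, a subunit of the translocon-associated complex, fell by 1.83 with DMSO (SE 0.57, limma adjusted p = 0.0151) and by 1.78 with Tg (SE 0.57, limma adjusted p = 0.0215). TRAM1, named after its value was seen, also passed with DMSO, at 1.75 ± 0.67 (limma adjusted p = 0.0426), and its call held in 1 of 13 alternatives. With DMSO the calls of SEC62 and SEC61A1 held in 8 of 13 alternatives, that of SSR4 in 7 and that of SEC63 in 6. Without input DMSO replicate 2 no gene passed with DMSO, and the differences were 1.88 for SEC62, 1.68 for SEC61A1, 1.99 for SEC63 and -1.97 for SSR4 (limma adjusted p from 0.337 to 0.345). With Tg the calls held in 7 alternatives for SEC62, 6 for SSR4 and 5 for SEC63. Of 25 genes of the Pol III machinery, 6 rose with DMSO and 3 with Tg, and 0 fell, shares near those of all genes (21.4% and 14.6% rising), and the list's medians of 1.11 and 0.88 were near those of all genes, 0.96 and 0.87. POLR3GL, a Pol III subunit, BRF1, a part of its initiation factor TFIIIB, and GTF3C1, a part of TFIIIC, rose with both. None of these 3 lists had a member called between the Tg and DMSO inputs (0.051% of all genes, all rising) or for the difference of IP against input between treatments (0.0611%, all falling), and in RNA-Seq 0 members passed in any comparison.

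BCYRN1 (BC200), a Pol III RNA whose start derives from an Alu element, was far above every other gene on the list of Pol III RNAs in level. It stood at 13251 and 3327 RPKM in the DMSO inputs and 12949 and 2055 in the Tg inputs. The IPs had 1294 and 286.9 RPKM with DMSO and 421.4 and 564.6 with Tg. Every IP was below every input. The difference was -3.44 ± 0.37 with DMSO (limma adjusted p = 3.09e-17) and -3.40 ± 0.37 with Tg (limma adjusted p = 4.54e-17), lower in 2 of 2 replicates in each. These calls held in 9 of 13 alternatives with DMSO and 11 of 13 with Tg. Without input DMSO replicate 2 the test with DMSO called 0 genes in all, and without the replicate block neither BCYRN1 call held. Where 7SL was higher in the Tg input than in the DMSO input of each replicate, BCYRN1 was nearly level in replicate 1 (13251 with DMSO, 12949 with Tg). In replicate 2 it was lower with Tg (3327 and 2055). In RNA-Seq it lay between 541.5 and 2967 RPKM, with WT DMSO replicate 2 at 1070, inside that range.

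Of 17 other Pol III RNAs listed in the tables, 11 were above 0 in Subunit-Seq and 6 were tested. Of these, 3 fell in the IP with DMSO (BCYRN1, RNU6-7 and RNU6-8) and 5 with Tg (these and VTRNA1-3 and RNU6-2). Of all genes, 1.75% and 1.62% fell. Genes entered the test by their input level alone, which favours a fall in the IP for genes of low level. The counts are therefore given as a description. RNU6-8, a gene for the spliceosomal U6 RNA, had 24.1 and 26.9 RPKM in the DMSO inputs, 36.6 and 42.0 in the Tg inputs, 16.4 and 0 in the DMSO IPs and 8.31 and 1.77 in the Tg IPs. RNU6-7 had 0 and 26.2 RPKM in the DMSO inputs and 0 in both DMSO IPs, so its DMSO call rested on replicate 2 alone. VTRNA1-3 had 26.4 and 0.934 RPKM in the Tg inputs and 0.666 and 0 in the Tg IPs. RNU6-2 had 1.83 and 2.33 RPKM in the Tg inputs and 0 in both Tg IPs. Apart from BCYRN1 and RNU6-8, the called genes of the list lay under 30 RPKM in every library. Their U6 and vault RNA copies share sequence with others, so they are uncertain. With no replicate block 0 were called in either treatment. None of the 6 spliceosomal snRNAs tested passed with either treatment. The mitochondrial ribosomal RNAs, which like 7SL are noncoding and abundant, fell too, with differences of -3.92 with DMSO and -5.48 with Tg for MT-RNR1 and of -4.25 and -5.05 for MT-RNR2 (limma adjusted p from 6.08e-105 to 2.66e-53). Without input DMSO replicate 2 the DMSO differences were -3.32 for MT-RNR1 and -2.67 for MT-RNR2 (limma adjusted p = 0.337). RNA left over from outside the captured complex was not measured separately, and its part in the 7SL values was not tested.

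**Figure D5:**
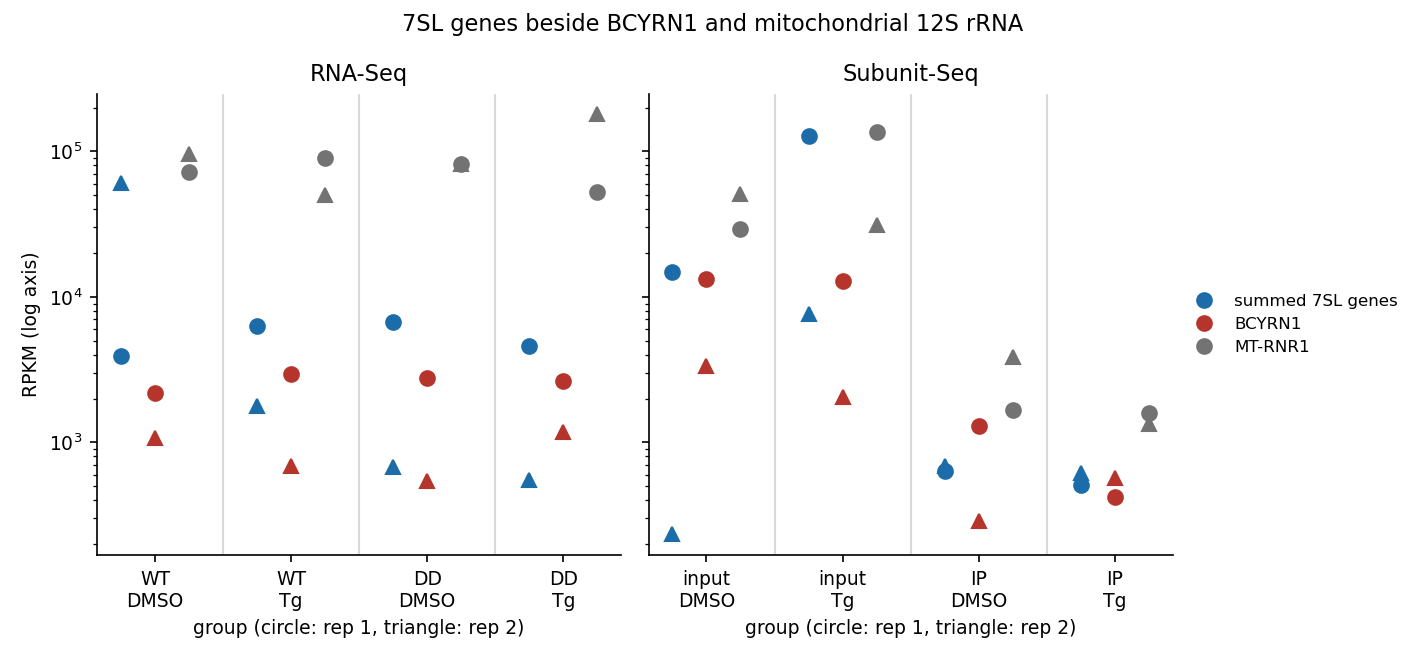
RPKM (log axis) of the summed 7SL genes, BCYRN1 and MT-RNR1 in the 16 libraries, with circles for replicate 1 and triangles for replicate 2. BCYRN1 and MT-RNR1 lie below every input in all 4 IPs, while the 7SL sum of input DMSO replicate 2 (233.1 RPKM) lies under all IPs.

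By Pearson's r between log2(RPKM + 1) values over the 8 libraries of an assay, the genes most like the 7SL sum in RNA-Seq were SNORA23 (0.96), RN7SKP180 (0.93), H2AC11 (0.91), RN7SKP80 (0.88) and VTRNA1-3 (0.87), out of 3798 genes ranked. They comprise a small nucleolar RNA, 2 copies of the Pol III RNA 7SK, a replication-dependent histone gene and a vault RNA, types of RNA that normally carry no poly(A) tail. In Subunit-Seq the most alike of 6025 genes were H2AC16 (0.96), H3C10 (0.93) and H4C2 (0.93), which are histone genes, then RN7SKP255 and RN7SKP71 (both 0.93). Only 8 libraries stand behind each r, they share library and depth, and WT DMSO replicate 2 or the inputs carry much of the range. MT-RNR1 had an r of -0.18 in RNA-Seq and 0.68 in Subunit-Seq, and MT-RNR2 0.07 and 0.45.

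The other 675 7SL-derived genes of the tables, named RN7SL with a number and P, contributed little. Of them 497 (73.6%) were at 0 in all 16 libraries, where 39.8% of all genes were, and 0 were above 0 in every library. Their summed level was 5.86 to 42.0 RPKM in RNA-Seq, 1.67 to 80.0 in the inputs and 29.2 to 61.6 in the IPs. RN7SL396P had the highest mean of the inputs, with 3.33 and 0 RPKM in the DMSO inputs, 43.8 and 0.282 in the Tg inputs and 0 in all 4 IPs. In RNA-Seq its 4 replicate 1 libraries lay between 8.67 and 17.7 RPKM, and replicate 2 had 4.51 and 0.434 RPKM in WT cells with DMSO and Tg and 0 in both DD libraries. Like RN7SL4P it was higher in replicate 1 of every group. The next in input level, RN7SL674P, RN7SL524P, RN7SL128P and RN7SL767P, stayed under 13 RPKM everywhere.

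The m6A libraries, made with an eCLIP kit, map methylated adenosines at single positions and were deposited as 1 list of sites per condition, so there are no replicates. The lists held 3000 sites for WT DMSO, 1572 for WT Tg, 1796 for DD DMSO and 5050 for DD Tg. In each list 0 sites fell within the span of any of the 5 genes or within 50 bases of it. The nearest site to any of the genes was 834 bases from RN7SL3, listed for WT DMSO and for DD DMSO. The lists hold called sites only, so they do not show how many reads covered the 7SL genes.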

How the data were processed

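RNA-Seq and Subunit-Seq values were deposited by the authors as RPKM per Ensembl gene, 1 table for RNA-Seq and 1 per Subunit-Seq replicate. The m6A sites were deposited as positions in lists, with the authors' other values per site not used here. The submitters' processing notes name cutadapt, STAR, BWA, DESeq2 and GRCh38, without versions. The gene counter, annotation release, treatment of reads that fit several places and site caller are not given in the sources used here. Per the labels, the RNA-Seq kit was not a directional one, so reads of overlapping genes on opposite strands may not be told apart.

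Symbols were matched for 58252 of 58721 genes (99.2%), and positions came from RefSeq for GRCh38.p14. RPKM values of a gene are multiples of 1 read, so whole reads were recovered for 26179 genes (tolerance 0.02) and gave depth, shares, 95% Wilson intervals and the floor of 3 reads, all covering counting error only. limma 3.58.1 in R 4.3.3 was fitted on log2(RPKM + 1), two-sided with an intensity trend, to genes with a mean of 1 RPKM over the 8 RNA-Seq libraries or the 4 inputs, adjusted by Benjamini-Hochberg over all genes, at a threshold of 0.05. A fold change on this scale understates that of low genes. The RNA-Seq fit had no block. Differences between its replicates correlated at 0.743 to 0.864 among WT DMSO, WT Tg and DD DMSO, and at 0.134 to 0.299 in pairs with DD Tg. The numbers thus go with a shared difference in the former groups, and only weakly in DD Tg. The fit with the block is given under the dependence on processing. For Subunit-Seq, whose replicates were deposited as separate tables, replicate was included as a block. There the same correlations ran from 0.002, for DMSO input with DMSO IP, to 0.51, for DMSO input with Tg input. Its residual degrees of freedom were 3, and the pooled prior was infinite, so its p-values rest on a spread shared by genes of like level. Scripts were tested on simulated data, where the share of false calls was somewhat above the nominal one.

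The 5 members and the gene lists were chosen with earlier results of these data known. Genes named are the members, the SRP proteins, other Pol III RNAs and mitochondrial ribosomal RNAs, called members of other lists, the 5 other 7SL-derived genes with the highest input mean, and the 5 genes per assay most like the 7SL sum with a mean of 5 RPKM. Alternatives were a pseudocount of 0.1, no filter, 2 rescalings, voom weights, the block, and leaving out each library.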

Additional observations from a re-analysis of the deposited data

Results flagged for a closer look

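2 results were picked out because Tg went with higher values in both inputs and lower values in both IPs. For RN7SL2 the difference between Tg and DMSO in log2(RPKM + 1) was 3.15 and 5.03 in the inputs of replicates 1 and 2, and -0.19 and -0.28 in the IPs. For the summed 7SL genes it was 3.11 and 5.02 in the inputs, and -0.32 and -0.16 in the IPs. RN7SL2 made up 80.9% to 87.8% of that sum in the inputs and 75.1% to 92.5% in the IPs, so the 2 results count as 1 observation. The difference between input and IP was not tested, because these values chose the genes. The median of all genes differed by -0.35 and 0.66 in the inputs and by 0.13 and 0.04 in the IPs, and the input library labelled DMSO replicate 2, the one that stood apart, is the base of the larger input values. RN7SL3, RN7SL4P and RN7SL5P did not share the pattern in replicate 2, where they were higher with Tg in the IP as well.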

How the results depend on the processing

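Counts of genes called in Subunit-Seq (2272 for IP against input with DMSO, 1591 with Tg, 6 for the difference of these and 5 for Tg against DMSO input) moved widely. In the same order they were 1332, 447, 0 and 0 with a pseudocount of 0.1, and 0, 0, 0 and 0 with no filter, where 5606, 5563, 362 and 370 had an unadjusted p under 0.05. Rescaling to reads outside mitochondrial rRNA gave 1527, 797, 0 and 0, and median-ratio scaling 29, 85, 0 and 0. With no replicate block they were 24, 36, 0 and 0, so these calls rest on pairing the libraries by number. Leaving out each library gave 0 to 5073, 114 to 2905, 0 to 19 and 0 to 33, with 0 for DMSO without input DMSO replicate 2 and 5073 without input DMSO replicate 1. Of the other Pol III RNAs, 3 fell with DMSO and 5 with Tg, and these counts were 0 and 0 with no filter, 0 and 0 with no replicate block, and 0 and 1 under median-ratio scaling. With Tg the count was 1 with a pseudocount of 0.1 and 3 after mitochondrial rescaling. Leaving out a library gave 0 to 3 and 2 to 5. The cause was not tested.

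RNA-Seq gave 0 calls in all 5 contrasts under every setting run, and the replicate block changed no call (0 in each, with 67, 77, 227, 254 and 67 unadjusted p under 0.05). Each group holds both replicate numbers, so the block cannot move a fitted difference, and that of RN7SL2 for Tg in WT stayed at -2.29 (limma adjusted p = 1.0). It can move the SE. For Tg in WT the SE went from 1.501 to 1.527 for RN7SL2 and from 1.535 to 1.394 for RN7SL3. It went from 2.811 to 1.346 for RN7SL4P and from 1.765 to 1.452 for RN7SL5P. Leaving out each library changed the sign of members. For Tg in WT the ranges were -4.68 to 0.10 for RN7SL2, -3.14 to 0.089 for RN7SL3 and -4.88 to 0.93 for RN7SL4P. For Tg in DD they were -1.69 to 0.79 for RN7SL2, -2.08 to 1.28 for RN7SL3, -4.12 to 3.46 for RN7SL4P and -2.56 to 1.99 for RN7SL5P. For DD against WT they were -6.39 to 1.19 for RN7SL4P with DMSO, and with Tg -2.26 to 0.061 for RN7SL2, -2.81 to 0.42 for RN7SL3, -4.53 to 2.62 for RN7SL4P and -2.89 to 0.98 for RN7SL5P. For the interaction they were -0.55 to 4.23 for RN7SL2, -0.55 to 2.81 for RN7SL3, -2.14 to 5.44 for RN7SL4P and -0.70 to 3.86 for RN7SL5P. In Subunit-Seq with DMSO they were -5.02 to 0.25 for RNU6-7, -1.23 to 0.52 for RNU6-2 and -2.04 to 0.12 for VTRNA1-3.

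Median-ratio scaling turned the IP against input differences of DMSO replicate 2 to -0.80 for RN7SL2, -1.79 for RN7SL3, -0.41 for RN7SL4P and -1.80 for RN7SL5P, and those of SRP9 with DMSO to -0.11 and TRAM1 with Tg to -0.32. The fold between the highest and lowest 7SL sum, 109.6 in RNA-Seq, became 101.1 after mitochondrial rescaling, 159.2 under median-ratio scaling, 101.9 with the other 7SL-derived genes and 12.2 without WT DMSO replicate 2. In the inputs 551.3 became 204.7 under median-ratio scaling and 16.9 without input DMSO replicate 2, and in the IPs 1.37 became 1.59 under median-ratio scaling. Analysis within 1 replicate number leaves 1 library a group, so it gave values and no test. Depth was not the limit for the 7SL sum, which held 1026 reads in the library with the fewest. It did limit single copies. RN7SL4P held 8 reads in DD Tg replicate 2, 13 in DD DMSO replicate 2 and 16 in input DMSO replicate 2. Its folds and shares that use these libraries rest on those few reads.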

Other observations

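Copies of 3 other Pol III RNAs were summed in the same way after the values were seen, and those of 7SK, but not of U6 or the Y RNAs, had the same high library. 7SK is the RNA scaffold that holds the elongation factor P-TEFb inactive, and its own gene, RN7SK, was listed at 0 in all 16 libraries. Of 293 annotated 7SK pseudogenes, 60 were above 0 in at least 1 library. In RNA-Seq they summed, replicate 1 before replicate 2, to 2893 and 7606 RPKM with DMSO and 2622 and 1022 with Tg in WT cells, and to 2387 and 487.9 with DMSO and 1226 and 985.5 with Tg in DD cells. As for the 7SL sum, replicate 2 was above replicate 1 in WT DMSO and below it in the other 3 groups. RN7SKP80 and RN7SKP203 led, with 3442 and 3354 RPKM in WT DMSO replicate 2.

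In the Subunit-Seq inputs the 7SK pseudogenes summed to 591.4 and 6.78 RPKM with DMSO and 1431 and 35.9 with Tg, again highest in Tg replicate 1 and lowest in DMSO replicate 2. The 4 IPs lay between 19.1 and 39.1 RPKM. The 7SL and 7SK families thus ordered the 4 inputs alike. No test was made of this likeness.

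The U6 pseudogenes (262 of 1271 above 0) went another way. In RNA-Seq their sum was lowest in WT DMSO replicate 2, at 14.5 RPKM, and highest in DD Tg replicate 2, at 194.2. Their inputs had 50.1 and 7.20 RPKM with DMSO and 38.9 and 5.60 with Tg, and the IP was above the input in every pair, at 111.3 and 29.3 with DMSO and 85.9 and 51.1 with Tg. The Y RNA pseudogenes (21 of 53 above 0) stayed under 16 RPKM in every library, with 3.94 in WT DMSO replicate 2 and a highest RNA-Seq value of 14.8 in DD DMSO replicate 2.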
